A study of Mus musculus with 4 samples.

Results

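Rras2, Rap1a and Rab7b are genes of small GTPases, and their transcripts were followed here in the spinal cord of mice that lack Sip1 in the oligodendrocyte lineage. The authors' deposited table of transcript clusters, whose limits include a fold of at least 1.45, names 369 genes by a single symbol. These are 3 of them. Rab7b stands there under its older symbol, 5430435G22Rik, and was identified through its RefSeq transcript. These genes, the members, hold 4 transcript clusters, which are groups of probes summarised to 1 value: 10567043 for Rras2, 10349661 for Rab7b, and 10500976 and 10563641 for Rap1a. The Rap1a cluster with the higher mean over the arrays, 10500976, stands for the gene. Because that table was itself chosen by the difference between mutant and control on these arrays, the differences of the members are given as a description and without a test. The smallest fold in the table was 1.45, and the smallest among the members was 2.07, for Rap1a, in the authors' deposited table.

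The Sip1 cKO group held 2 samples of whole spinal cord from mice of genotype Sip1 c/c;Olig1-Cre, and the control group 2 samples from littermates of genotype Sip1 c/+;Olig1-Cre. All mice were at postnatal day 14 and of a mixed C57 and 129 background, and the labels call the samples of a group biological replicates. Control mice thus carried the same Cre, driven from the Olig1 gene of the oligodendrocyte lineage, and 1 conditional Sip1 allele, so they are heterozygous for the deletion in the cells where Cre acts. Sip1 is the zinc finger transcription factor now named Zeb2. Total RNA was hybridised to 1 array per sample, and each array gave RMA values on the log2 scale for 35557 clusters.

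Small GTPases are molecular switches that are active when bound to GTP and inactive when bound to GDP. Exchange factors load them with GTP and GTPase-activating proteins end the signal. A lipid added to the carboxyl end anchors them in membranes: a farnesyl or geranylgeranyl group on Ras and Rap proteins, and geranylgeranyl groups on Rab proteins. Rras2, also called TC21, is an R-Ras protein that signals to PI3 kinase and Akt. Rap1a is a close relative of Ras that controls integrin adhesion and cell junctions. Rab7b is a Rab of late endosomes and the trans-Golgi network and acts in transport between these compartments. In oligodendrocytes, Ras and PI3 kinase signalling is known for its part in myelin growth, and endosomal transport for the traffic of myelin proteins to the cell surface.

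The reference promoters matched 1 of the 3 members, Rras2. Its 250 bases before the gene's start are shown because the targeted protein, Zeb2, is a DNA-binding factor whose core motif can be looked for in them. The stretch lies at chr7:114117782-114118031 of GRCm38.p6 on the minus strand (RefSeq), and capitals mark the matches to CANNTG, the E-box that helix-loop-helix factors such as Olig1 and Olig2 bind, and to GGGCGG, the GC box, each searched on both strands.

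Rras2 promoter: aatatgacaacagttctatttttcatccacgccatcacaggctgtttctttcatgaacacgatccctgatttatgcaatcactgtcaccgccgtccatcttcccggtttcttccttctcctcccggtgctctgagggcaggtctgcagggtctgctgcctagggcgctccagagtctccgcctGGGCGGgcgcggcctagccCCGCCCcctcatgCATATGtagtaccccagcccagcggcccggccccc

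The Rras2 stretch held 0 matches to CACCT, the core motif of Zeb2, on either strand, and 46.0% of the 32851 RefSeq promoter stretches of this length held at least 1. It held 1 match to CANNTG, which starts 35 bases before the gene's start, and 66.2% of the stretches held at least 1. It held 2 matches to GGGCGG, which start 67 and 48 bases before the gene's start, and 32.7% of the stretches held at least 1. No match overlapped another, and 59.6% of its bases were G or C, against a median of 52.4% over all stretches. A match is a run of letters and not a measured binding site, and the absence of CACCT applies to this window alone.

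Zeb2 itself read 8.61 and 8.66 on the log2 scale in the Sip1 cKO arrays, against 10.29 and 10.47 in the control arrays, so each array followed its label. The 2 Sip1 cKO arrays correlated at r = 0.993 over clusters and the 2 control arrays at r = 0.990, and array medians lay between 6.62 and 6.70. In limma's fit, a Benjamini-Hochberg adjusted p under 0.05 was reached by 305 lower clusters (0.858%) and 78 higher ones (0.219%). With identical rows counted once, these were 269 lower and 24 higher clusters. The total of 383 became 58 without Sip1 cKO replicate 1, 60 without Sip1 cKO replicate 2 and 0 without control replicate 1 or 2. For 1 value alone, the smallest two-sided p that an exact permutation of these 4 arrays allows is 0.333. The number of arrays limits the precision of every value. In whole tissue, fewer cells of a type and less RNA per cell cannot be told apart.

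All 3 members were lower in Sip1 cKO cords than in control cords. Rab7b stood at 14.4% of its control level, Rras2 at 19.9% and Rap1a at 48.2%, as ratios of the means of the log2 values. The Sip1 cKO arrays lay below the control arrays without overlap for all 3, which also held for 25.1% of all clusters in this direction and for 97.8% of the named genes. All 3 were called lower in the fit over all clusters (0.858% of all clusters, 55.3% of the named genes), which is printed as a description, since the table that names them was chosen on the same contrast. With any 1 of the 4 arrays left out, 0 of the 3 were called, and Rap1a also lost its call with median centring of the arrays and with identical rows counted once. With the change of all clusters ranked from the lowest, Rab7b was number 46, Rras2 number 74 and Rap1a number 437. Among the 369 named genes they were numbers 38, 53 and 245. The median log2 change was -0.01 over all clusters and -1.29 over the named genes, so Rab7b and Rras2 lay below the typical gene of the table. Rap1a lay above it with the cluster used here, whereas its second cluster, at -1.41, lay below it.

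**Figure D1:**
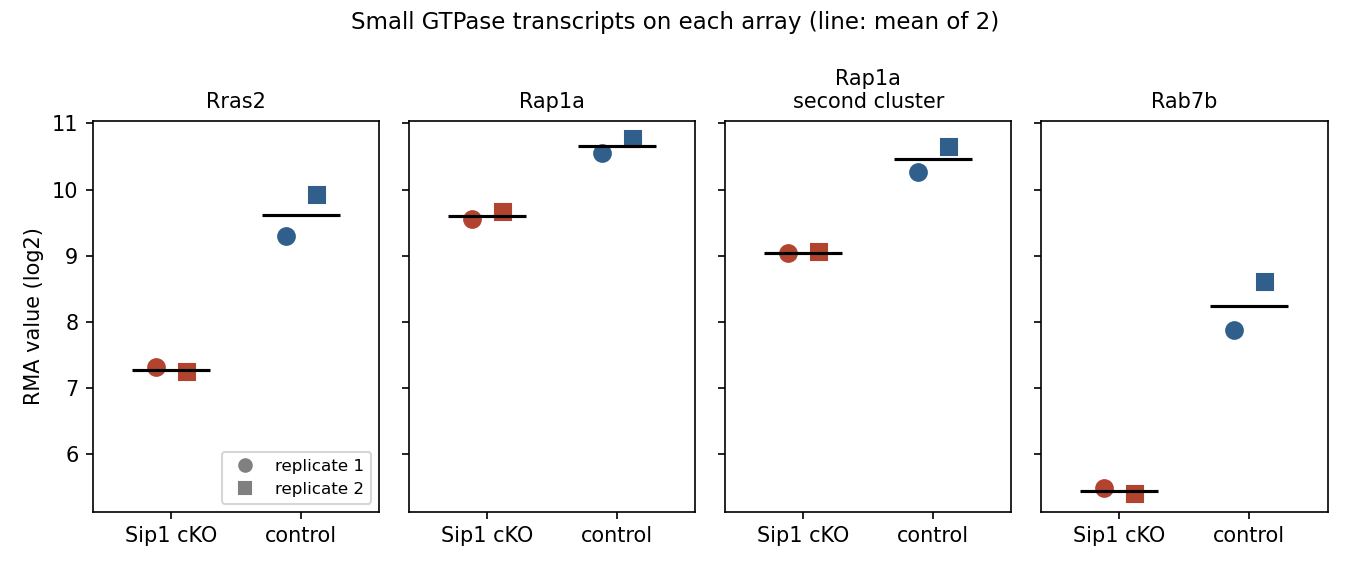
RMA values (log2, vertical axis) of the clusters of Rras2, Rap1a, the second Rap1a cluster and Rab7b on each array, Sip1 cKO to the left of control. Circles are replicate 1, squares replicate 2 and lines the means of 2 arrays. In each panel both Sip1 cKO arrays lie below both control arrays, and the control arrays of Rras2 and Rab7b lie farther apart than those of Rap1a.

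Rras2, the R-Ras protein, had RMA values of 7.32 and 7.25 in the Sip1 cKO arrays, against 9.30 and 9.92 in the control arrays. Control replicate 2 was the highest array and the Sip1 cKO arrays lay close together. The group means were 7.28 ± 0.05 in Sip1 cKO and 9.61 ± 0.44 in control (SD, n = 2 each), a log2 change of -2.33, or 5.03-fold lower in Sip1 cKO. Over the 4 pairs of 1 Sip1 cKO array with 1 control array, the change ran from -2.68 to -1.99. The control arrays were 0.62 apart, a wider gap than that of 95.1% of all clusters, while the Sip1 cKO arrays were 0.07 apart. The size of the change of Rras2 therefore depended mostly on which control array it was set against, and without control replicate 1 it was -2.64, without control replicate 2 -2.02.

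Rap1a, the regulator of integrin adhesion, had values of 9.55 and 9.67 in the Sip1 cKO arrays, against 10.55 and 10.77 in the control arrays. Its groups did not overlap, and the nearest arrays of the groups were 0.88 apart. The means were 9.61 ± 0.08 in Sip1 cKO and 10.66 ± 0.15 in control (SD, n = 2 each), a log2 change of -1.05, or 2.08-fold lower in Sip1 cKO. Its pairs of arrays gave changes from -1.22 to -0.88. The control gap of 0.22 was wider than that of 65.3% of all clusters, so Rap1a varied less between control arrays than the other members did.

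The second Rap1a cluster read 9.03 and 9.05 in the Sip1 cKO arrays, against 10.27 and 10.64 in the control arrays, again without overlap. Its means were 9.04 ± 0.01 and 10.46 ± 0.26 (SD, n = 2 each), a log2 change of -1.41, or 2.66-fold lower in Sip1 cKO. Both clusters had the same direction, but the change of the second was 0.36 lower on the log2 scale than that of the first, and it was lower in each of the 4 pairs of arrays, with differences from -0.48 to -0.23. The table gives the 2 clusters the same symbol and the same RefSeq transcript, and a pseudogene, Rap1a-ps2, is annotated in the mouse genome. Which copy or part of Rap1a the probes of each cluster match was not analysed here, so the size of the Rap1a change is uncertain between these values.

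Rab7b, the late endosomal Rab, had values of 5.49 and 5.40 in the Sip1 cKO arrays, against 7.87 and 8.60 in the control arrays. It had the widest control gap of the members, 0.73, which exceeded that of 96.7% of all clusters, and its Sip1 cKO arrays were 0.10 apart. The means were 5.44 ± 0.07 in Sip1 cKO and 8.24 ± 0.51 in control (SD, n = 2 each), a log2 change of -2.79, or 6.93-fold lower in Sip1 cKO. The pairs of arrays ran from -3.20 to -2.38. In Sip1 cKO Rab7b stood only 0.18 on the log2 scale above the highest lower quartile of the 4 arrays (5.27). The files give no detection call, so whether these values lie above background is not known.

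In the authors' deposited table the mean intensity of Rras2 was 170 in Sip1 cKO and 818 in control. The same authors' deposited table put Rab7b at 59.1 in Sip1 cKO and 328 in control, and Rap1a at 793 in Sip1 cKO and 1641 in control. Its fold is not the ratio of these intensities but follows from its centred log2 means, and was 4.71 for Rras2 and 5.40 for Rab7b. On the log2 scale the authors' deposited table thus gives a change of -2.43 for Rab7b, smaller than the -2.79 of the array values, and of -2.24 for Rras2 beside -2.33. Rap1a was nearly the same in both, at -1.05.

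The Ras-like members were compared with the late endosomal Rab through the log2 difference between genes within each array, whose shift from control to mutant does not depend on the scaling of that array. The mean of Rras2 and Rap1a minus Rab7b was 2.94 and 3.06 in the Sip1 cKO arrays, against 2.05 and 1.75 in the control arrays. The difference between gene clusters has no meaning as a level, but it was higher in both Sip1 cKO arrays than in either control array. Its shift was 1.10 on the log2 scale, with 0.89 to 1.31 over the pairs of arrays, so the Rab7b ratio of Sip1 cKO to control was a further 2.14-fold below that of the Ras-like pair. No test is given, because the members were chosen on this contrast.

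Most of that shift came from Rap1a. The Rap1a minus Rab7b difference was 4.06 and 4.27 in the Sip1 cKO arrays and 2.68 and 2.17 in the control arrays, a shift of 1.74. Rras2 moved nearly with Rab7b: their difference was 1.82 and 1.85 in the Sip1 cKO arrays, against 1.43 and 1.32 in the control arrays, a shift of 0.46 with 0.40 to 0.53 over the pairs. Between the Ras-like members, Rras2 minus Rap1a was -2.23 and -2.42 in the Sip1 cKO arrays, against -1.25 and -0.85 in the control arrays, a shift of -1.28. As measured, the members thus did not fall into a Ras-like and a Rab class by the size of their change: Rras2 lay nearer to Rab7b than to Rap1a. Whether the Sip1 cKO values of Rab7b lie above background is not known, so its distance from Rras2 is uncertain. The order from the largest decrease, Rab7b, Rras2, Rap1a, was the same whichever single array was left out.

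**Figure D2:**
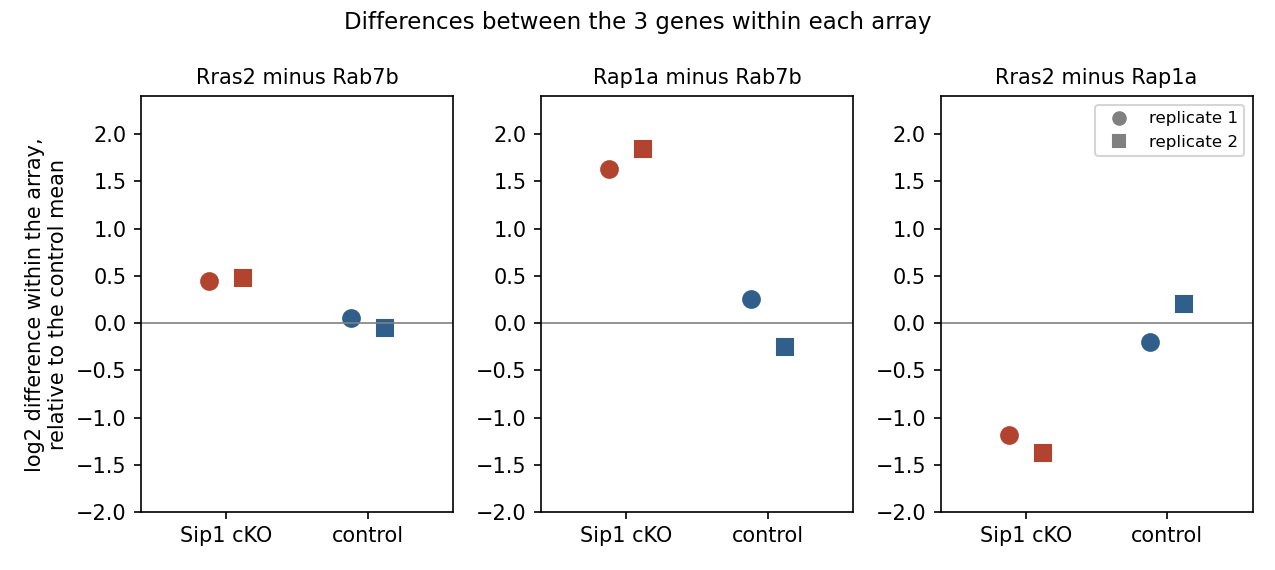
Log2 difference between pairs of members within each array, relative to its mean over the control arrays (vertical axis), Sip1 cKO to the left of control, with circles for replicate 1 and squares for replicate 2. The Rras2 minus Rab7b difference shifts by 0.46, whereas Rap1a minus Rab7b shifts by 1.74 and Rras2 minus Rap1a by -1.28.

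Profiles over the 4 arrays, each set to its control mean, use the same values. Their distances thus mainly restate the sizes of change above and are no further support for that grouping. The root mean square distance between Rras2 and Rab7b was 0.33 on the log2 scale, while Rap1a was 0.92 from Rras2 and 1.25 from Rab7b. Rab7b was only number 47 among the other named genes by nearness to Rras2, and Rras2 number 23 by nearness to Rab7b. The nearest of the 368 other named genes to Rras2 was Myo1d, an unconventional myosin, at 0.04, followed by Galnt6, Slain1, Slc45a3 and Frmd8 at 0.09 to 0.12. The median distance of the named genes from Rras2 was 0.83. Myo1d read 7.06 and 6.92 in the Sip1 cKO arrays, against 9.06 and 9.61 in the control arrays, with the same order of arrays as Rras2.

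Nearest to Rap1a were Golga7 at 0.02, Gpr37 and Wnt3 at 0.03, Ell2 at 0.04 and Npc2 at 0.05, with a median of 0.31 over the named genes. Golga7, a subunit of a palmitoyltransferase of Ras proteins, read 9.52 and 9.61 in the Sip1 cKO arrays, against 10.48 and 10.71 in the control arrays. Nearest to Rab7b were Gjb1 at 0.11, Mob3b at 0.13, Pla2g4a and Hapln2 at 0.16 and 0.17, and Rnf122 at 0.17, with a median of 1.11. Gjb1, a gap junction protein, read 5.71 and 5.79 in the Sip1 cKO arrays, against 8.36 and 8.95 in the control arrays. With 4 arrays these distances describe mainly the size of the change and the gap between the control arrays.

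The gap between the control arrays was shared. In control replicate 2 all 3 members read higher than in the other control array, as did 82.1% of the named genes, against 47.0% of all clusters. Among 7 markers of mature oligodendrocytes 5 were, with control gaps from 0.05 to 0.57, all under the gaps of Rras2 and Rab7b. What part this difference between control arrays has in the values of the members was not tested.

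Mature oligodendrocyte markers moved with the members. Of 8 markers sought, 7 were named (Mog, Mobp, Mag, Cldn11, Cnp, Opalin and Ermn), and all 7 passed the fit as lower, beside 55.3% of the named genes and 0.858% of all clusters. They were named only through the table chosen on these arrays, so their count is no independent evidence. Their summed linear level was 1458 and 2134 in the Sip1 cKO arrays, against 36317 and 38630 in the control arrays. Their log2 changes ran from -6.32 (Mog) to -2.84 (Cnp). By group means each member had a smaller decrease and lay outside this range, with Rab7b at -2.79 just beside the least changed marker. Over the pairs of arrays Rab7b and Cnp overlapped, at -3.20 to -2.38 and -2.98 to -2.69. Whether the Sip1 cKO values of Rab7b lie above background is not known, which limits this comparison. Mog, Mobp, Mag and Cldn11 differed between the Sip1 cKO arrays by 1.34 to 1.61 on the log2 scale, with replicate 2 higher. The other markers differed less: Cnp by 0.22 with replicate 2 higher, and Ermn by 0.39 and Opalin by 0.07 with replicate 1 higher. The members differed there by 0.07 to 0.12, a range that held Opalin. The part of these cells in the result was not tested. The 19 markers of oligodendrocyte progenitors, neurons, astrocytes, microglia and endothelial cells were not named by the table and were not analysed here.

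**Figure D3:**
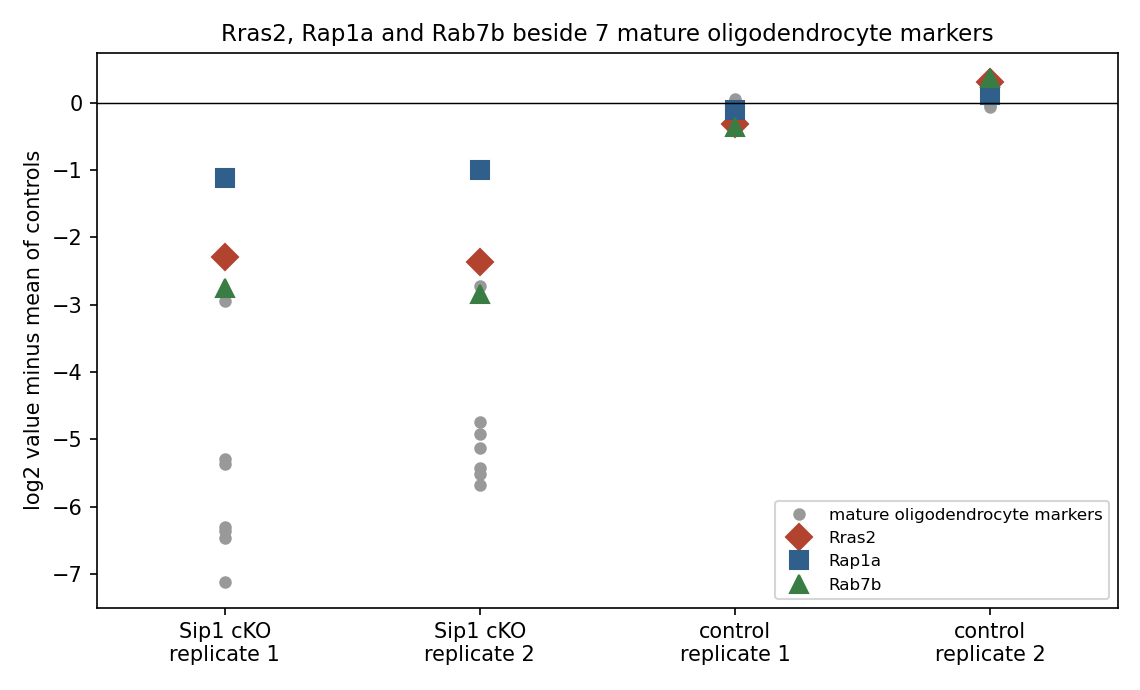
Log2 value minus the mean of the control arrays (vertical axis) on each array for Rras2, Rap1a and Rab7b (coloured) and for 7 mature oligodendrocyte markers (grey). In Sip1 cKO the members lie above 6 of the 7 markers, and the spread between the Sip1 cKO arrays seen in several markers is not seen in the members.

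Genes around these GTPases were taken from 6 lists with 230 genes, of which 15 were named by the table, the 3 members included. Of the other 12, 7 passed the fit as lower, 0 as higher and 5 did not pass (limma, adjusted p under 0.05). An unadjusted p under 0.05 in that fit was reached by all 12, and by 5853 of the 35557 clusters, 3027 of them lower. The median log2 change of the 12 was -1.02, with a range from -1.84 to -0.62, beside -1.29 for all named genes. Since 55.3% of the named genes passed as lower, the count of 7 of 12 is near that background. These arrays also served to choose the table, so that these genes were lower is no independent evidence, and list genes outside the table were not analysed here. Leaving out any 1 of the 4 arrays left 0 of the 12 past the threshold. Of these 12 genes, 5 had a larger decrease than Rap1a and 0 a larger one than Rras2. The 5 include Fdps, whose change of -1.34 was smaller than the -1.41 of the second Rap1a cluster.

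On the list of prenylation enzymes and GTPase escorts 4 of 21 genes were named, and these 4 passed as lower, beside 55.3% of the named genes. Fntb, the beta subunit of the farnesyltransferase that modifies Ras proteins, averaged 7.93 ± 0.04 in Sip1 cKO and 9.77 ± 0.04 in control (SD, n = 2 each). It fell by 1.84 on the log2 scale (limma, adjusted p = 0.00929). Zdhhc9 and Golga7, which together form a palmitoyltransferase of Ras proteins, both passed: Zdhhc9 fell by 1.84 (limma, adjusted p = 0.0117), and Golga7 fell by 1.03 (limma, adjusted p = 0.0490), a call that was lost with median centring of the arrays. Fdps, which makes the farnesyl diphosphate from which the prenyl groups derive, fell by 1.34 (limma, adjusted p = 0.0214). Rras2 thus had a larger change than these 4 genes. Rap1a had a change close to that of Golga7 in the cluster used here, but of -1.41 in its second cluster.

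In the Ras and Rap family, 3 of 35 genes were named. Beside Rras2 and Rap1a this was Nras, a classical Ras protein, which averaged 8.27 ± 0.05 in Sip1 cKO and 9.18 ± 0.20 in control (SD, n = 2 each), with a log2 change of -0.91 that did not pass (limma, adjusted p = 0.0789). Of 46 effectors and feedback genes 1 was named, Ralgds, an exchange factor for Ral that Ras and Rap proteins recruit, and it fell to 49.9% of control (limma, adjusted p = 0.0365). Of 30 exchange factors and GTPase-activating proteins 1 was named, Rasgrp3, which loads Ras and Rap1, with a log2 change of -0.65 (limma, adjusted p = 0.271). Rap1a, Nras and Ralgds thus had changes of like size, and Rras2 stood apart from them, a description of chosen genes that was not tested. The likeness holds for the Rap1a cluster used here, and the second Rap1a cluster had a larger change, -1.41.

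In the Rab family, 4 of 57 genes were named, and Rab7b had the largest change. Rab33a, a Golgi-associated Rab, averaged 9.30 ± 0.17 in Sip1 cKO and 10.85 ± 0.29 in control (SD, n = 2 each) and fell by 1.56 on the log2 scale (limma, adjusted p = 0.0464), also a call lost with median centring. Rab37, a Rab of secretory vesicles, fell by 1.55 (limma, adjusted p = 0.0305). Rab31, a Rab of early endosomes and the trans-Golgi network, had a log2 change of -0.62 (limma, adjusted p = 0.0833). Of 41 other genes of late endosome and lysosome traffic, Npc1 and Npc2, the cholesterol exporters of the lysosome, were named, with log2 changes of -0.95 and -0.98 (limma, adjusted p = 0.0568 and 0.0618). Rab7b thus had a larger change than the other 5 named genes of these lists, which was not tested.

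**Figure D4:**
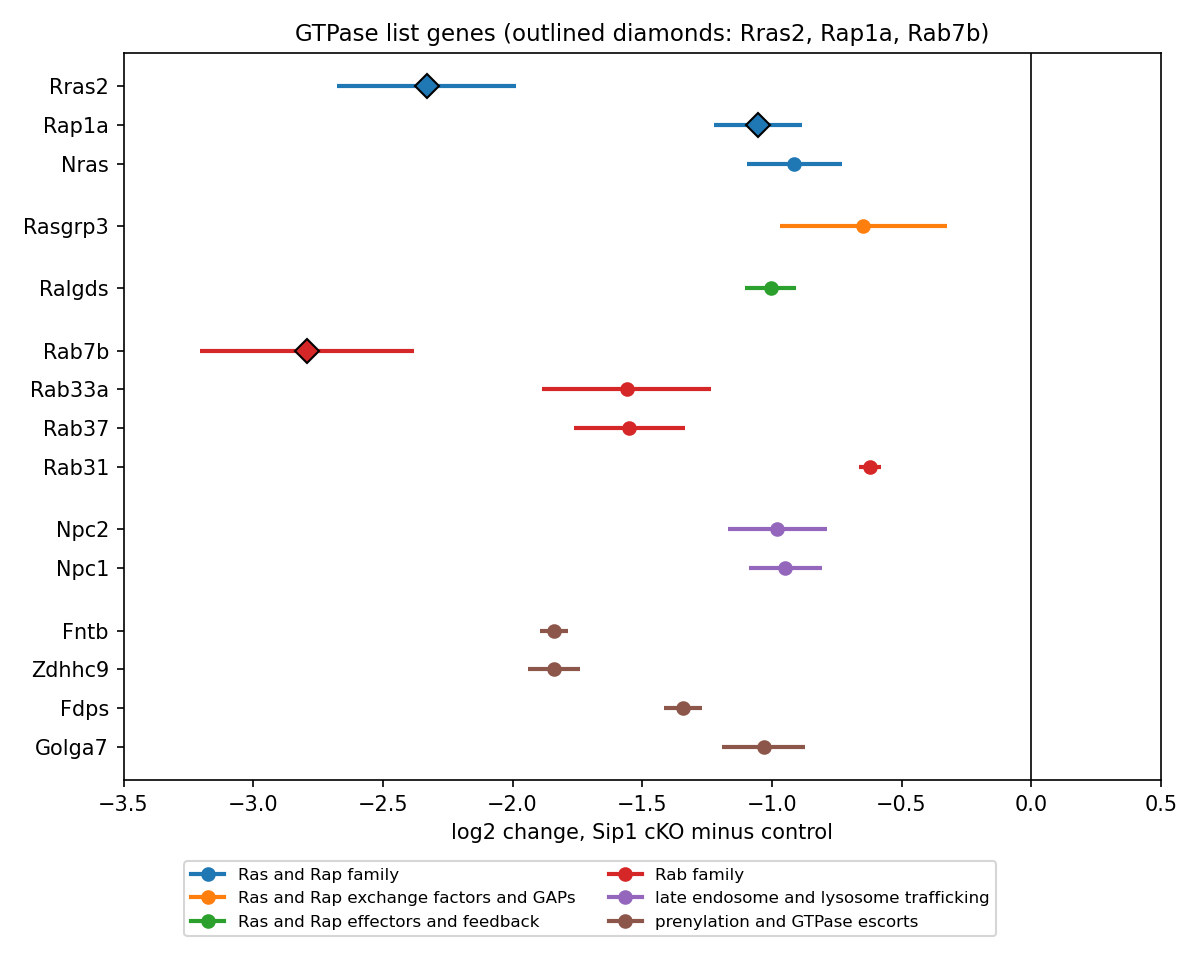
Log2 change, Sip1 cKO minus control (horizontal axis), of the 15 named genes of 6 GTPase lists, coloured by list. Points are differences of group means, bars run over the 4 pairs of arrays, and outlined diamonds are Rras2, Rap1a and Rab7b. Rab7b at -2.79 and Rras2 at -2.33 lie lowest.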

How the data were processed

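Groups came from the sample titles. Per the submitters' processing notes, RMA gave the authors' deposited array values, which are log2 values evened out between arrays. They were not normalized again. The array type is MoGene-1_0-st-v1, per the file headers. Build and RMA version: not given in the sources used here. In 1 further file, the authors' deposited table gives group means as intensity and as centred log2 values, and a fold, whose size matched the difference of the centred log2 means within 1% in all 420 rows. Per the file headers its limits are a fold of at least 1.45 and the 10th to 100th percentile of raw expression. It does not hold every cluster beyond that fold in the array values. Rab31, 1.54-fold lower, was number 1256 from the lowest change, whereas 398 rows were higher in control. A gene outside the authors' deposited table may thus have differed by more than 1.45-fold. Changes are given as Sip1 cKO minus control throughout. Of its 420 clusters, 375 carried 1 symbol, brought up to date through RefSeq names of GRCm38.p6 (323 current, 37 by transcript, 8 by an older symbol, 7 kept). For genes with several clusters the one with the highest mean was used.

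The fit covered all 35557 clusters and used limma's lmFit and eBayes (version 3.58.1, under R version 4.3.3; group only, two-sided, Benjamini-Hochberg adjustment). The procedure was run on simulated arrays with independent normal noise. That run checked the size and sign of added changes and not the rate of false calls. The precision is set by 2 arrays per group. Genes described singly were the members, list genes in the table, Zeb2, cell type markers and the 5 genes nearest to each member. The members and lists were chosen with earlier results of these data known. A further gene list that the rule takes is not reported here. The replicate numbers were checked as pairs: deviations of same-numbered arrays correlated at r = 0.0764 across clusters.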

Additional observations from a re-analysis of the deposited data

How the results depend on the processing

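Rras2, Rap1a and Rab7b kept their direction in each setting. Their groups did not overlap, so leaving out an array could not have reversed it. Scaling moved no change by more than the replicate SD. Rap1a was -1.41 with its second cluster and -1.23 with the mean of both. The Ras-like minus Rab7b shift was 0.92 with that cluster and 0.79 from the authors' deposited table. Leaving out 1 array in turn gave -2.64 to -2.02 for Rras2, -1.16 to -0.94 for Rap1a, -3.16 to -2.43 for Rab7b and 0.95 to 1.25 for that shift, and lost all 3 members' calls each time. Calls over all clusters were then 0 to 60 and over the 12 list genes 0 each time, with the lone array assumed to vary like the other group. With median centring, or with identical rows counted once, the call of Rap1a was lost, and 5 list genes passed. The 383 calls over all clusters were 603 with an eBayes trend, 818 without the lowest identifiers, 712 at an adjusted p under 0.1 and 5853 at an unadjusted p under 0.05. The 7 list genes were 11 with an eBayes trend, without the lowest identifiers or at an adjusted p under 0.1, and 12 at an unadjusted p under 0.05. The cause of these shifts was not tested. The replicate numbers share only a number. With them as a replicate block 111 clusters, 2 list genes (Fntb and Zdhhc9) and 0 of the 3 members passed. Each group holds each replicate number, so this block cannot alter the size of a change. The members' changes of -2.33, -1.05 and -2.79 and the shift of 1.10 were therefore the same by design.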
